A study of Mus musculus with 5 samples.

Results

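The endoplasmic reticulum chaperones and the unfolded protein response were examined as a set of 39 genes in mouse bone marrow-derived macrophages. The members are named genes, and they were found by their gene symbol in the deposited count table. The rule that selects them uses no measured value, but the list was chosen with earlier results of these data known. Where a symbol had several transcript rows, the row with the highest mean count stood for the gene. All 39 were found among the 20583 symbols of the table, and all 39 passed the filter on low counts, which left 13341 genes.

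The libraries came from NICcA mice (n = 2, replicates 2 and 3) and wild type mice (n = 3, replicates 1, 2 and 3), all on a C57BL/6 background and 7 to 8 weeks old. Bone marrow cells of either genotype were grown for 7 days with M-CSF, the growth factor that turns marrow progenitors into macrophages, at 25 ng/ml. The labels do not spell out NICcA, and neither the cells in which the allele is active nor its driver is given in the sources used here. The name has been used for mice that conditionally express a Notch intracellular domain, which activates transcription in the nucleus. Nothing in the labels ties the libraries to different animals or cultures. The p-values below therefore reflect variation from library to library, possibly technical in origin.

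The endoplasmic reticulum is where secreted and membrane proteins are threaded in, folded, joined by disulfide bonds and inspected. Proteins that fail inspection are sent back to the cytosol and degraded. When unfolded proteins build up, the sensors Ire1 (gene Ern1), Perk (gene Eif2ak3) and Atf6 start the unfolded protein response. Ire1 splices the Xbp1 transcript so that it encodes an active transcription factor, Atf6 is cut in the Golgi to release another, and Perk slows translation and raises Atf4. Macrophages use this machinery for receptors, cytokines, complement proteins and lysosomal enzymes.

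Total counts per library lay between 64870248 and 68110891 in NICcA and between 57442309 and 76562905 in wild type. Hes1, a direct Notch target used to check the genotype label, had counts of 185 and 125 in NICcA, against 1, 5 and 6 in wild type. Notch1, the other check, was at 84.2 and 87.6 CPM in NICcA, against 78.5, 68.1 and 67.4 CPM in wild type (CPM, counts scaled to library size with TMM factors). All 7 macrophage markers were present in every library, and their summed level was 11637 and 12332 CPM in NICcA, against 13641, 16170 and 20040 CPM in wild type. Lyz2 made up most of those sums. Of the 7, 3 had both NICcA libraries below all wild type libraries (18.5% of all genes did). Fcgr1 alone had both above (18.3% of all genes), at 140 and 77.5 CPM in NICcA, against 63.6, 48.3 and 61.5 CPM in wild type. Of 8 B and plasma cell markers, cells whose secretory machinery is large, 7 were under 1 CPM in every library. The exception was Sdc1, also a surface protein of other cells, and the list as a whole summed to 58.2 and 32.2 CPM in NICcA, against 61.2, 83.8 and 95.8 CPM in wild type. Dendritic cell markers summed to 999 and 648 CPM in NICcA, against 712, 898 and 877 CPM in wild type, mostly from Itgax. Of these 5 markers, 3 (Flt3, Zbtb46 and Cd209a) had both NICcA libraries above all wild type libraries, and 0 had both below. Zbtb46 was at 10.7 and 7.61 CPM in NICcA, against 5.33, 4.82 and 2.67 CPM in wild type, and Flt3 was under 1 CPM. Itgax and Ccr7 overlapped. Neutrophil markers summed to 82.9 and 101 CPM in NICcA, against 64.4, 43.1 and 81.2 CPM in wild type, and mast cell markers to 23.2 and 16.1 CPM in NICcA, against 10.3, 5.61 and 2.35 CPM in wild type. Ngp of the neutrophil list, and Cpa3 and Tpsb2 of the mast cell list, had both NICcA libraries above all wild type libraries. In either list 0 had both below. Markers of T and NK cells and of erythroid cells were each under 1 CPM, and stromal markers summed to at most 10.5 CPM, in wild type replicate 1. The part of these other cells in the results below was not tested.

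The promoters of some of these genes are shown because they hold a sequence known from this response. The members are themselves known genes of the response, so the shares below describe the list and were not tested. Atf6 and Xbp1 act through the endoplasmic reticulum stress response element (ERSE), CCAAT and CCACG with any 9 bases between them. The CCAAT block binds the general factor NF-Y, and the CCACG block binds Atf6 or Xbp1. RefSeq promoter windows, from 250 bases before to 50 bases after the start site in GRCm38.p6, were at hand for 34 of the 39 members and 27025 genes in all. On either strand, 10 of the 34 members held the ERSE (29.4%), against 37 of all genes (0.137%). They were Calr, Canx, Creld2, Derl3, Dnajc3, Ero1lb, Hsp90b1, Hspa5, Pdia6 and Syvn1, and Hsp90b1 held it at 2 places. Below, capitals mark the match. The window of Hspa5 is shown up to the base before its start site, and the others with 20 bases on each side. Matches on the opposite strand begin with CGTGG and end with ATTGG.
Hspa5 (chr2:34771840-34772089, plus strand): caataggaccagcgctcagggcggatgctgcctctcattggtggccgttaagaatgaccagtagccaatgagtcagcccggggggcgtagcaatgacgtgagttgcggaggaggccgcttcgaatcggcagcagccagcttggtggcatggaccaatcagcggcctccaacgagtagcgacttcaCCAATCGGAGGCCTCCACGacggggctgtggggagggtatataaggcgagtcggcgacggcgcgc
Hsp90b1 site 1 (chr10:86705618-86705676, minus strand): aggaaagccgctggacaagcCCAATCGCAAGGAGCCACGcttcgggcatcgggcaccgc
Hsp90b1 site 2 (chr10:86705513-86705571, minus strand): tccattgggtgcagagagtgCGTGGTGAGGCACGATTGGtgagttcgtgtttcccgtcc
Dnajc3 (chr14:118937807-118937865, plus strand): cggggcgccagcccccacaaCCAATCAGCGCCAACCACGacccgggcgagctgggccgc
Calr (chr8:84847055-84847113, minus strand): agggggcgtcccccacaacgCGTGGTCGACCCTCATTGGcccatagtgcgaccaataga
Canx (chr11:50325780-50325838, minus strand): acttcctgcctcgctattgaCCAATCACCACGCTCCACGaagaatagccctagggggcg
Pdia6 (chr12:17266471-17266529, plus strand): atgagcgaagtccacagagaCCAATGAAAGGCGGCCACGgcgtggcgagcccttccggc

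A shorter form, ERSE-II (ATTGG and CCACG with any 1 base between them), was in the windows of Dnajb11 and Herpud1, 5.88% of the members with a window against 0.0444% of all genes. That of Herpud1, which tethers degradation machinery in the membrane, is shown as the other arrangement of the same blocks, again in capitals.
Herpud1 (chr8:94386357-94386407, plus strand): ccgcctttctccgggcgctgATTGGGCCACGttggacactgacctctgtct

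The other motifs searched on both strands were rare in the members or near the share of all genes. The Xbp1 site UPRE (TGACGTGG) was in Txndc5 alone, 2.94% against 0.714%. The core of the cAMP response element (TGACGT), which lies inside the UPRE, was in Canx, Dnajb11, Hspa5 and Txndc5, 11.8% against 8.37%. The composite site for C/EBP and Atf factors (TGATGNAAT) was in 0 members, against 1.08% of all genes. The site of Rbpj (GTGGGAA), the DNA-binding partner of the Notch intracellular domain, was in Ero1lb and Pdia3, 5.88% against 7.25%. A match describes letters in the window and not binding.

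**Figure D1:**
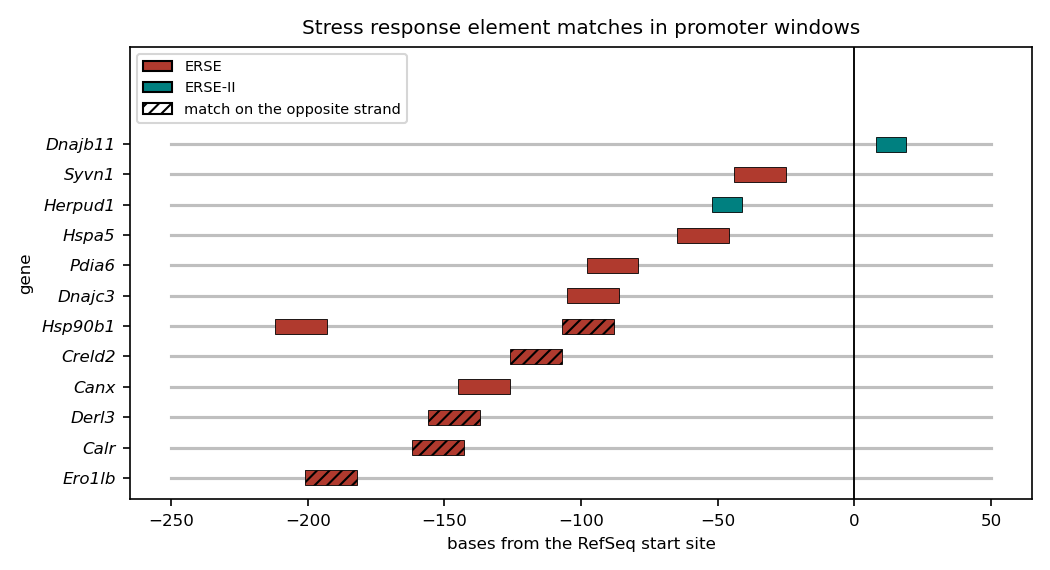
Position of the ERSE (red) and ERSE-II (teal) matches in the promoter windows of the 12 members that hold one, in bases from the RefSeq start site, with matches on the opposite strand hatched. All ERSE matches lie before the start site, and the ERSE-II of Dnajb11 lies after it.

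Per length, chaperones and folding enzymes were the most abundant members in both genotypes. By the authors' deposited RPKM (counts scaled for transcript length and library total), Hspa5, the Hsp70 chaperone BiP, stood at 279.8 and 268 in NICcA and 342, 351 and 381 in wild type, where its mean ranked 93 among all genes. Calr, the lectin chaperone calreticulin, stood at 304 and 263 RPKM in NICcA and 298, 331 and 334 RPKM in wild type. By group means Calr had the highest level of the set in NICcA, and Hspa5 the highest in wild type, but in NICcA replicate 3 Hspa5 was above Calr. P4hb, protein disulfide isomerase, followed at 242 and 230.1 RPKM in NICcA and 243, 244 and 221 RPKM in wild type. Xbp1 averaged 151 RPKM in NICcA and 99.7 RPKM in wild type. The sensor kinase Ern1, the ubiquitin ligase Syvn1 and the derlin Derl3 were the least abundant in wild type, with means of 4.27, 2.88 and 0.726 RPKM. Summed over the members, RPKM came to 2376 and 2282 in NICcA, against 2472, 2500 and 2464 in wild type. Hspa5 alone held 11.8% and 11.7% of that sum in NICcA, against 13.8%, 14.0% and 15.5% in wild type.

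The comparison between the genotypes found lower values in NICcA for most members, by small amounts, and 0 of 39 members passed the main test. That test was edgeR's quasi-likelihood test with Benjamini-Hochberg adjustment over the whole table, at an adjusted p below 0.05; the lowest adjusted p of a member was 0.28. In all, edgeR called 4 genes higher in NICcA (0.03% of genes) and 0 lower (0%). At an unadjusted p below 0.05, 14 members were lower (35.9%, against 6.83% of all genes) and 2 were higher (5.13%, against 7.68% of all genes). DESeq2, the other count test, which called 4.03% of all genes, called 8 members lower (20.5%, against 1.94% of all genes) and 0 higher (background 2.09%). These were Hspa5, Hsp90b1, Dnajb9, Dnajc3, Pdia3, Erp44, Canx and Sel1l. Their adjusted p lay between 0.00203 and 0.0439 with DESeq2 and between 0.28 and 0.32 with edgeR, and between 0.00203 and 0.901 over all alternatives, in none of which a log2 fold change of these 8 turned positive. Hes1, the check of the genotype label, had a log2 fold change of 5.18 and was also not called by edgeR (adjusted p = 0.13). DESeq2 called Hes1 (adjusted p = 1.06e-11). Of the cell type markers above, DESeq2 called Fcgr1, Ngp and Cpa3 higher in NICcA (2.09% of all genes). Their adjusted p with DESeq2 was 0.0413, 0.0353 and 0.0488. It called 0 of the markers lower (1.94% of all genes).

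A negative log2 fold change, lower in NICcA, was found for 34 members (87.2%, against 49.5% of all genes). The median over the members was -0.20, against 0.00 over all genes tested. Without scaling factors it was -0.0892, against 0.11 over all genes, and on log2(RPKM + 1) it was -0.0823, against 0.09 over all genes. The edgeR values ran from -0.65 for Derl3 to 0.49 for Xbp1. For 16 members (41.0%) the log2 fold change was -0.30 or lower, against 15.9% of all genes. The members were more abundant than most genes, with a median of mean levels of 107 CPM, against 16.1 CPM over all genes tested. The shares of all genes given here were not matched for level, and the part of level in them was not tested. Both NICcA libraries lay below all 3 wild type libraries for 22 members (56.4%, against 18.5% of all genes). Both lay above for Xbp1 and Sec61b (background 18.3%), and the groups overlapped for 15. The 22 became 12 on the deposited RPKM (8.72% of all genes) and 14 on counts over library totals without scaling factors (8.96%), 2 scales on which all genes shifted upward by a median log2 of 0.09 to 0.11. On those scales 25 of 38 members or 28 of 39 were negative, against 33.4% and 35.5% of all genes. The members among the 22 that overlapped on RPKM were Hyou1, Dnajc10, Pdia4, Ero1lb, Calr, Edem1, Syvn1, Derl3, Ssr1 and Sec63. In bulk RNA, fewer cells of a type and less RNA per cell cannot be told apart. Counts of all members together made up 1.02% and 1.03% of each library in NICcA, against 1.14%, 1.12% and 1.13% in wild type, taking 1 row per gene.

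**Figure D2:**
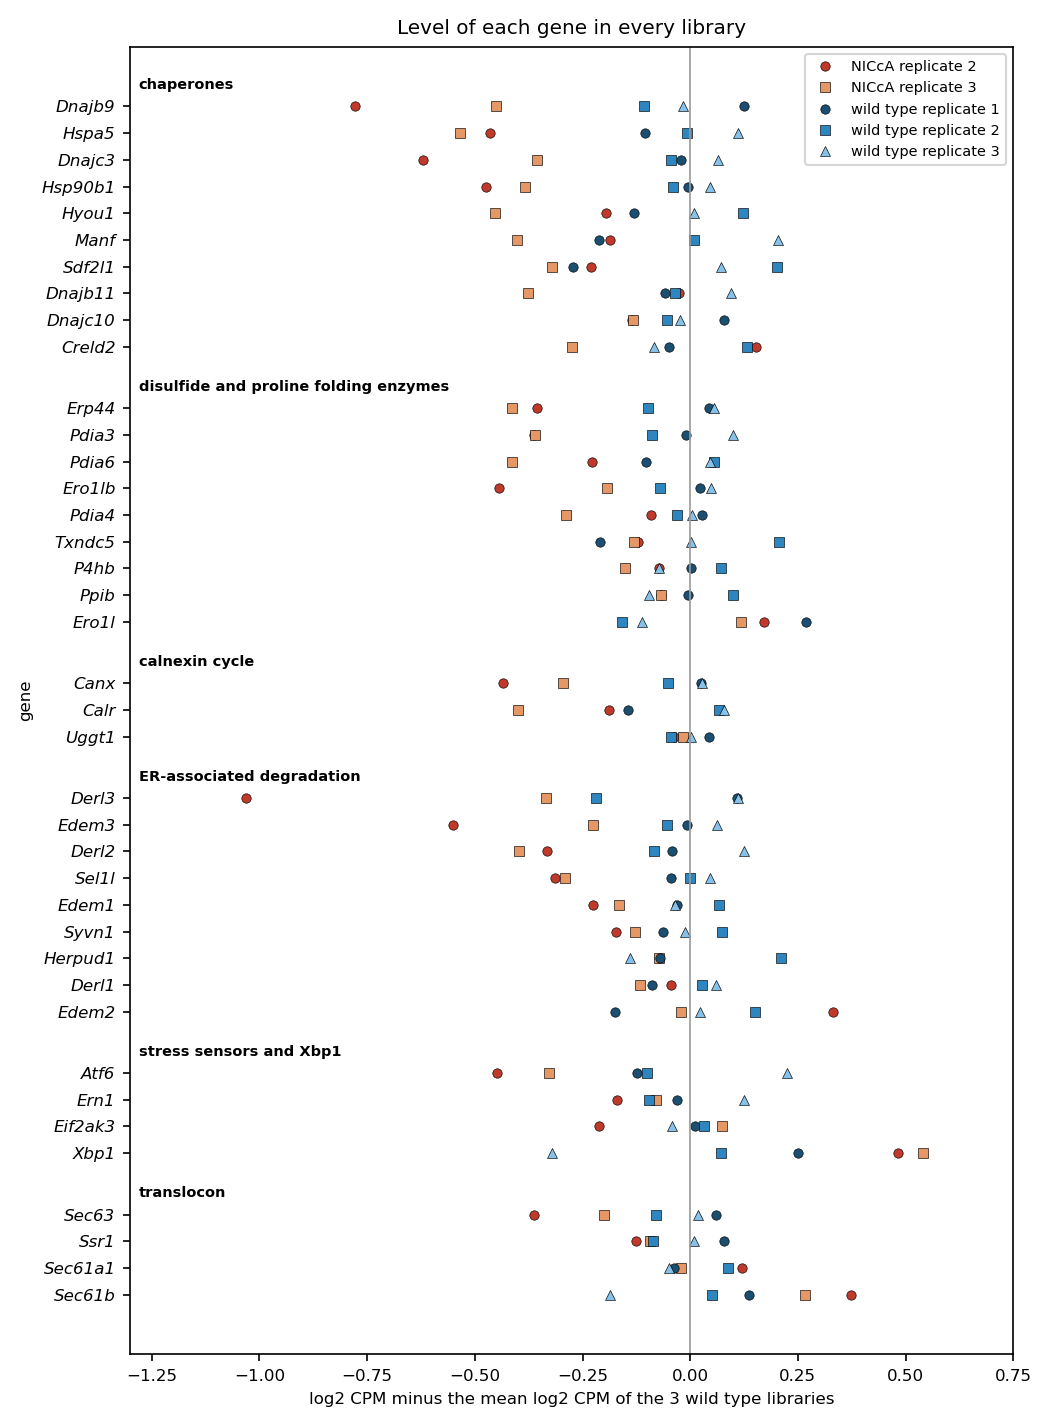
Log2 CPM of each of the 39 members in every library, minus the mean log2 CPM of the 3 wild type libraries (x axis), with genes grouped by role (y axis). The median over the members is -0.19 and -0.23 in NICcA (replicates 2 and 3), against -0.02, -0.01 and 0.02 in wild type (replicates 1, 2 and 3).

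The chaperones had the lowest median log2 fold change of the 6 role groups. All 10 had a negative log2 fold change (49.5% of all genes did), 6 had NICcA libraries below every wild type library (18.5% of all genes did), and the median was -0.31. Hspa5, which binds exposed hydrophobic stretches and also holds the sensors inactive, was at 860.0 and 819 CPM in NICcA, against 1104, 1182 and 1283 CPM in wild type (log2 fold change -0.50, SE 0.13; adjusted p = 0.28 with edgeR and 0.00493 with DESeq2). Hsp90b1, the Hsp90 chaperone Grp94 that folds Toll-like receptors and integrins, was at 446 and 475 CPM in NICcA, against 617, 602 and 640.3 CPM in wild type (log2 fold change -0.43, SE 0.11; adjusted p = 0.28 with edgeR and 0.00203 with DESeq2). Both genes were lower in each NICcA library than in any wild type library, and DESeq2 called both.

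The J-domain co-chaperones, which hand clients to Hspa5 and drive its ATP cycle, spread from the lowest value of the group to one near no difference. Dnajb9 (ERdj4) was at 17.7 and 22.3 CPM in NICcA, against 33.2, 28.2 and 30.1 CPM in wild type (log2 fold change -0.61, SE 0.14; adjusted p = 0.28 with edgeR and 0.0167 with DESeq2). Dnajc3 (p58IPK), another of these, was at 125 and 149.6 CPM in NICcA, against 188, 186 and 200.2 CPM in wild type (log2 fold change -0.48, SE 0.12; adjusted p = 0.28 with edgeR and 0.0178 with DESeq2). For these 2 genes the groups did not overlap, and NICcA replicate 2 was the lower of the pair. Dnajc10 (ERdj5), a reductase that opens disulfide bonds of proteins to be degraded, also had no overlap but a log2 fold change of -0.14. Dnajb11 (ERdj3) overlapped: its NICcA replicate 2 lay among the wild type libraries and its NICcA replicate 3 below them (106 and 82.7 CPM in NICcA, against 103, 105 and 115 CPM in wild type).

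Of the remaining chaperone members, Hyou1, the nucleotide exchange factor Grp170 that resets Hspa5, was at 146 and 122 CPM in NICcA, against 153, 182 and 168 CPM in wild type (log2 fold change -0.32, SE 0.13), with no overlap. Sdf2l1, a partner of Dnajb11, and Manf, a secreted protein that binds Hspa5, had log2 fold changes of -0.29 and -0.30, and in both genes NICcA replicate 2 lay above wild type replicate 1. Creld2, a stress-inducible protein of the lumen, was at 32.2 and 24.0 CPM in NICcA, against 28.0, 31.8 and 27.4 CPM in wild type, so that its NICcA libraries held the highest and the lowest value of the 5. Its log2 fold change of -0.05 turned positive without scaling factors and on RPKM.

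**Figure D3:**
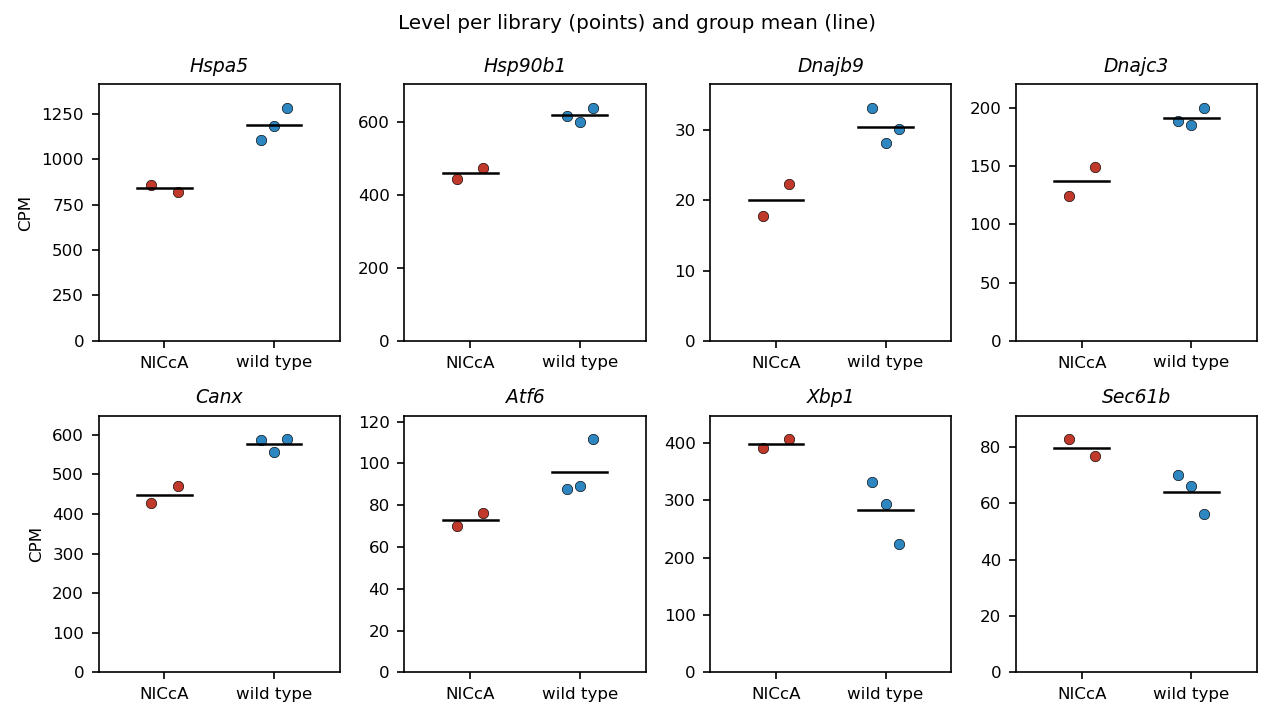
CPM of 8 members in each library (points) with the group mean (line), NICcA on the left and wild type on the right of each panel. The first 6 panels have both NICcA libraries below all wild type libraries, and Xbp1 and Sec61b have both above.

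Enzymes that form disulfide bonds or turn proline bonds had negative log2 fold changes in 8 of 9 members (49.5% of all genes) and no overlap, with NICcA lower, in 5 (18.5% of all genes). Their median was -0.19. Erp44, which retrieves thiol-linked clients and oxidases from the early Golgi, was at 32.5 and 31.2 CPM in NICcA, against 42.9, 38.8 and 43.1 CPM in wild type (log2 fold change -0.39, SE 0.10; adjusted p = 0.29 with edgeR and 0.0428 with DESeq2). Pdia3 (ERp57), the isomerase that works with calnexin and calreticulin and in the MHC class I loading complex, was at 228 and 229 CPM in NICcA, against 291, 276 and 314 CPM in wild type (log2 fold change -0.36, SE 0.11; adjusted p = 0.30 with edgeR and 0.0436 with DESeq2). In Pdia3 the NICcA libraries differed from each other by less than the wild type libraries did, and both lay below them. Pdia6, Pdia4 and the oxidase Ero1lb were the other 3 without overlap, with log2 fold changes of -0.32, -0.19 and -0.31.

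The most abundant isomerase did not share that separation. P4hb was at 722 and 684 CPM in NICcA, against 759.9, 797 and 722 CPM in wild type (log2 fold change -0.11, SE 0.12). Its NICcA replicate 2 equalled the lowest wild type library to 3 digits, and its log2 fold change was slightly positive on the RPKM scale. Txndc5, another thioredoxin-domain isomerase, and Ppib, the proline isomerase cyclophilin B, overlapped at log2 fold changes of -0.14 and -0.07, that of Ppib turning positive without scaling factors and on RPKM. The log2 fold changes of the oxidase pair had opposite signs. Ero1l, which recharges P4hb and is known to be induced by low oxygen, was at 69.0 and 66.6 CPM in NICcA, against 73.9, 55.0 and 56.8 CPM in wild type (log2 fold change 0.13, SE 0.15), overlapping. Ero1lb was at 44.3 and 52.8 CPM in NICcA, against 61.2, 57.4 and 62.4 CPM in wild type (log2 fold change -0.31, SE 0.12).

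In the calnexin cycle, which holds glycoproteins until their sugar chain is trimmed, both lectins were lower by CPM in each NICcA library than in any wild type library. The folding sensor was not. Canx, the membrane lectin calnexin, was at 427 and 471 CPM in NICcA, against 587, 557 and 588 CPM in wild type (log2 fold change -0.36, SE 0.11; adjusted p = 0.31 with edgeR and 0.0236 with DESeq2). Calr, its soluble relative, was at 693 and 599 CPM in NICcA, against 714, 828 and 834 CPM in wild type (log2 fold change -0.29, SE 0.14). Its gap between the groups was narrow, since NICcA replicate 2 lay close to wild type replicate 1, and on RPKM the groups overlapped. Uggt1, which re-tags unfolded glycoproteins for another round, was at 155 and 157 CPM in NICcA, against 164, 154 and 159 CPM in wild type (log2 fold change -0.03, SE 0.10), overlapping, and its direction turned without scaling factors and on RPKM.

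Genes of endoplasmic reticulum-associated degradation had negative log2 fold changes in 8 of 9 members (49.5% of all genes) and no overlap, NICcA being lower, in 6 (18.5% of all genes). The median was -0.20. Sel1l, the scaffold of the ubiquitin ligase complex, was at 157 and 159.6 CPM in NICcA, against 189, 195 and 202 CPM in wild type (log2 fold change -0.30, SE 0.10; adjusted p = 0.32 with edgeR and 0.0439 with DESeq2). Its partner Syvn1, the ligase Hrd1 itself, was at 11.2 and 11.6 CPM in NICcA, against 12.1, 13.3 and 12.6 CPM in wild type (log2 fold change -0.15, SE 0.12). Both libraries of NICcA were the lowest in each of these genes, with a difference for Syvn1 close to its standard error. Derl2, a derlin of the exit channel, was at 38.4 and 36.7 CPM in NICcA, against 47.0, 45.6 and 52.8 CPM in wild type (log2 fold change -0.37, SE 0.11; adjusted p = 0.30 with edgeR, and not called by DESeq2).

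The mannosidase-related Edem genes, which mark glycoproteins for disposal, differed among themselves. Edem3 was at 60.0 and 75.2 CPM in NICcA, against 87.4, 84.6 and 91.7 CPM in wild type (log2 fold change -0.38, SE 0.13; adjusted p = 0.32 with edgeR). Edem1 was at 263 and 275 CPM in NICcA, against 301, 322 and 301 CPM in wild type (log2 fold change -0.20, SE 0.11). Edem2 was at 67.1 and 52.6 CPM in NICcA, against 47.2, 59.2 and 54.2 CPM in wild type (log2 fold change 0.16, SE 0.15), and its NICcA replicate 2 was the highest of the 5 libraries while NICcA replicate 3 lay among the wild type. Without NICcA replicate 2 the log2 fold change of Edem2 was -0.03. Derl1 and Herpud1 overlapped at -0.08 for each, and both turned positive without scaling factors and on RPKM. Derl3, best known from secretory cells, was barely present, at 0.598 and 0.97 CPM in NICcA, against 1.32, 1.05 and 1.32 CPM in wild type, and its log2 fold change of -0.65 had an SE of 0.33.

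The 3 sensors and Xbp1 divided. Atf6 was at 70.0 and 76.0 CPM in NICcA, against 87.6, 89.1 and 111 CPM in wild type (log2 fold change -0.40, SE 0.14; adjusted p = 0.33 with edgeR, and not called by DESeq2), with no overlap and wild type replicate 3 well above the rest. Ern1 was at 19.1 and 20.3 CPM in NICcA, against 21.1, 20.1 and 23.5 CPM in wild type (log2 fold change -0.13, SE 0.12), and NICcA replicate 3 lay above wild type replicate 2. Eif2ak3 was at 42.8 and 52.2 CPM in NICcA, against 49.9, 50.6 and 48.1 CPM in wild type (log2 fold change -0.06, SE 0.12), and its NICcA libraries held the lowest and the highest value of the 5. Its log2 fold change was 0.07 without NICcA replicate 2, and positive without scaling factors and on RPKM.

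Xbp1 had the highest log2 fold change of the set, where 34 of the 39 members were negative. It was at 391 and 407 CPM in NICcA, against 333, 294 and 224 CPM in wild type (log2 fold change 0.49, SE 0.18; adjusted p = 0.33 with edgeR, and not called by DESeq2). Both NICcA libraries were above every wild type library, and wild type replicate 3 was the lowest. The table lists 2 Xbp1 transcripts, whose counts differed by 150 and 181 reads in NICcA, and by 85, 145 and 80 reads in wild type. That was 0.574% and 0.617% of the longer row in NICcA, against 0.443%, 0.673% and 0.542% in wild type. The rows thus share nearly all reads, and the spliced and unspliced forms cannot be told apart.

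Among the 4 translocon members, through which new chains enter, 2 were negative and 2 positive. Sec63, which recruits Hspa5 to the channel, was at 31.3 and 35.0 CPM in NICcA, against 42.0, 38.1 and 40.8 CPM in wild type (log2 fold change -0.28, SE 0.11; adjusted p = 0.34 with edgeR). Sec61b, the small beta subunit of the channel, was at 82.8 and 76.9 CPM in NICcA, against 70.2, 66.2 and 56.1 CPM in wild type (log2 fold change 0.31, SE 0.12; adjusted p = 0.34 with edgeR), and both NICcA libraries were above all wild type libraries. Sec61a1, the pore itself, was at 212 and 192 CPM in NICcA, against 190.2, 207 and 189 CPM in wild type (log2 fold change 0.05, SE 0.11), overlapping, with -0.02 without NICcA replicate 2. Ssr1, of the translocon-associated complex, was at 139 and 142 CPM in NICcA, against 160.4, 143 and 153 CPM in wild type (log2 fold change -0.11, SE 0.10), a small separation whose sign turned on the RPKM scale.

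**Figure D4:**
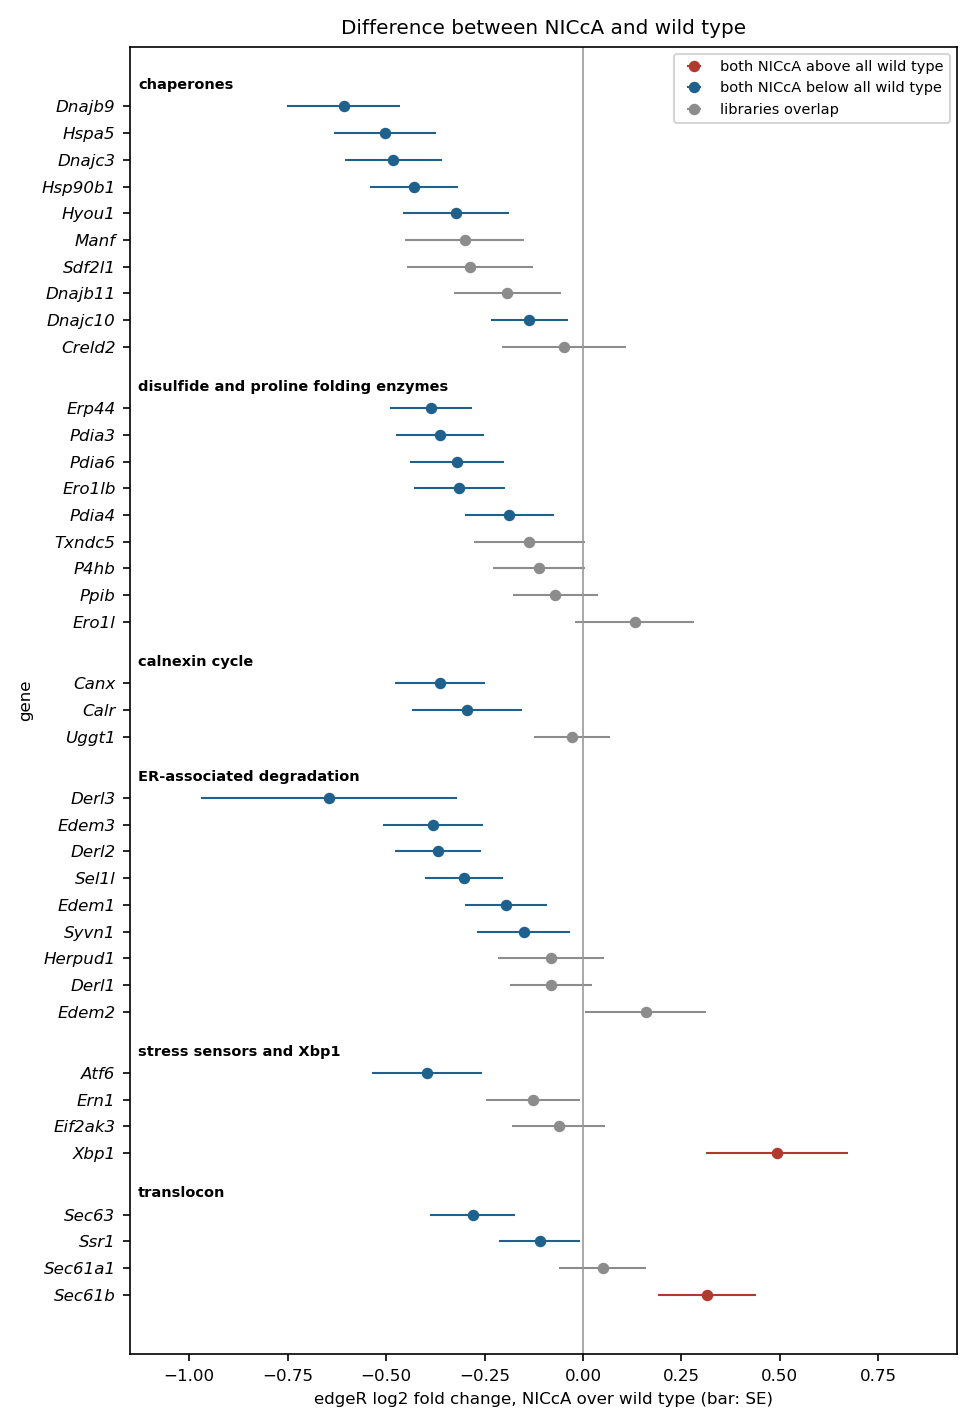
EdgeR log2 fold change of each member, NICcA over wild type, with its standard error as a bar, genes grouped by role and coloured by whether the libraries of the groups overlap. Blue marks the 22 members with both NICcA libraries below all wild type libraries, red the 2 with both above, and grey the 15 that overlap.

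The NICcA libraries differed from each other across the members without a common direction. NICcA replicate 2 was above replicate 3 for 19 members and below it for 20, with log2 ratios from -0.70 (Derl3) to 0.43 (Creld2). NICcA replicate 2 was below all wild type libraries for 24 members (33.3% of all genes), and NICcA replicate 3 for 28 (28% of all genes). The chaperones had a median of -0.21 in NICcA replicate 2 and -0.38 in NICcA replicate 3, against -0.05, -0.02 and 0.06 in wild type replicates 1, 2 and 3 (log2, from the wild type mean). Wild type replicate 3 held the highest of the 5 values for 17 members. The lowest was in NICcA replicate 2 for 17 members and in NICcA replicate 3 for 13. The shares of all genes are not given for these counts, so nothing is read from them. Wild type replicate 3 also had the highest summed macrophage markers, mostly from Lyz2, and the part of the markers in the members' values was not tested.

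Members with an ERSE in the promoter window were compared with the rest as a description. All 10 with an ERSE had a negative log2 fold change, 9 had no overlap with NICcA lower, DESeq2 called 4 lower, and the median was -0.34. Over all genes 49.5% were negative, 18.5% had no overlap with NICcA lower, and DESeq2 called 1.94% lower. Creld2 was the member of these 10 that overlapped. On the deposited RPKM, Calr, Derl3, Ero1lb and Syvn1 overlapped as well. Derl3, with the lowest log2 fold change of the 10, was barely present, at 0.598 to 1.32 CPM. Of the 24 with a window and no ERSE, 20 were negative (83.3%) and 11 had no overlap with NICcA lower (45.8%). Of these 11, Dnajc10, Pdia4, Edem1, Ssr1 and Sec63 overlapped on RPKM. No overlap with NICcA higher was found for 2 (18.3% of all genes), and the median of the 24 was -0.14. DESeq2 called 4 of these lower as well (16.7%): Dnajb9, Pdia3, Erp44 and Sel1l. The 5 members without a window, Hyou1, Manf, Derl1, Atf6 and Sec61a1, had a median of -0.30. Beyond the members, 27 genes held the ERSE, of which 8 were tested, and 5 of those were negative, with a median of -0.17. No test was made of the difference between these lists.

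Other genes of the pathway, listed by role, numbered 121, of which 117 were tested. EdgeR called 0 of them, with 16 lower (13.7%, against 6.83% of all genes) and 4 higher (3.42%, against 7.68%) at an unadjusted p below 0.05. DESeq2 called 3 lower (Nck1, Hspa13 and Tmed10) and 0 higher (2.09% of all genes). Those 3 were 2.56% of the genes tested, near the 1.94% of all genes that it called lower. Over all alternatives the adjusted p ranged from 0.0479 to 0.901 for Nck1, from 0.0317 to 0.901 for Hspa13 and from 0.0215 to 0.901 for Tmed10. The median log2 fold change of the 117 was -0.10, and 81 were negative (69.2%, against 49.5% of all genes). No overlap was found with NICcA lower for 39 (33.3%, against 18.5% of all genes) and with NICcA higher for 7 (18.3% of all genes).

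Of the 9 genes of the Perk branch, 6 were negative, with a median of -0.09. Nck1, an adaptor that dampens the branch, was at 47.8 and 45.9 CPM in NICcA, against 57.8, 58.6 and 63.0 CPM in wild type (log2 fold change -0.35, SE 0.10; adjusted p = 0.29 with edgeR and 0.0479 with DESeq2). Chac1, a glutathione-degrading enzyme induced through Atf4, was at 1.08 and 0.901 CPM in NICcA, against 0.416, 0.218 and 0.0759 CPM in wild type (log2 fold change 2.07, SE 0.63; adjusted p = 0.30 with edgeR), higher in both NICcA libraries but near the lower limit of measurement. The central factors Atf4 and Ddit3 (CHOP), named after their values were seen, overlapped at log2 fold changes of 0.06 and -0.03. Atf3 and Trib3, also named after their values were seen, did not overlap and differed in direction. Atf3 was at 238 and 161 CPM in NICcA, against 292, 326 and 499 CPM in wild type (log2 fold change -0.90, SE 0.29, edgeR adjusted p = 0.31). Trib3 was at 5.10 and 5.52 CPM in NICcA, against 3.89, 4.08 and 3.05 CPM in wild type (log2 fold change 0.53, SE 0.19, edgeR adjusted p = 0.33). Of the 11 tested factors of the Atf6 and Ire1 branches, 5 were negative, with a median of 0.00. Mbtps2, the Golgi protease that frees the active part of Atf6, was at 9.93 and 11.9 CPM in NICcA, against 14.9, 13.4 and 17.4 CPM in wild type (log2 fold change -0.48, SE 0.16). Wfs1, a membrane protein that restrains Atf6, was at 8.05 and 5.06 CPM in NICcA, against 7.51, 10.5 and 15.6 CPM in wild type (log2 fold change -0.78, SE 0.36), overlapping.

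Of 27 further folding factors, 20 were negative, with a median of -0.10. Hspa13, an Hsp70 relative, was at 32.0 and 34.3 CPM in NICcA, against 44.2, 41.2 and 44.8 CPM in wild type (log2 fold change -0.39, SE 0.10; adjusted p = 0.28 with edgeR and 0.0317 with DESeq2). Qsox1, a sulfhydryl oxidase of the Golgi, was at 44.8 and 37.5 CPM in NICcA, against 33.1, 29.7 and 22.8 CPM in wild type (log2 fold change 0.53, SE 0.18), with both NICcA libraries above all wild type libraries. Of 23 further degradation factors, 16 were negative, with a median of -0.10. Selk, a selenoprotein of the degradation complex, was at 50.7 and 51.7 CPM in NICcA, against 64.8, 63.3 and 74.7 CPM in wild type (log2 fold change -0.40, SE 0.11). Bcap31, a membrane chaperone and export factor, was at 86.7 and 74.7 CPM in NICcA, against 99.4, 105 and 103 CPM in wild type (log2 fold change -0.35, SE 0.11). Neither of these 2 degradation genes overlapped between the groups.

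Of 20 further translocon and targeting genes, 16 were negative, with a median of -0.12. The signal peptidase subunits Spcs3 and Spcs2 had both NICcA libraries below every wild type library. Spcs3 was at 113 and 131 CPM in NICcA, against 163, 149 and 163 CPM in wild type (log2 fold change -0.38, SE 0.12), and Spcs2 was at 78.6 and 77.4 CPM in NICcA, against 91.8, 94.9 and 99.7 CPM in wild type (log2 fold change -0.29, SE 0.09). Of 13 genes of N-glycosylation, 6 were negative, with a median of 0.02. Mogs, the glucosidase that makes the initial trim of the sugar chain, was at 64.4 and 61.0 CPM in NICcA, against 50.6, 56.9 and 47.0 CPM in wild type (log2 fold change 0.28, SE 0.12), with NICcA above wild type. Magt1, of the oligosaccharyltransferase, was at 61.4 and 75.7 CPM in NICcA, against 89.4, 72.8 and 92.7 CPM in wild type (log2 fold change -0.31, SE 0.15), overlapping. Of 14 genes of transport between the endoplasmic reticulum and the Golgi, 12 were negative, with a median of -0.21. Tmed10, a cargo receptor, was at 127 and 135 CPM in NICcA, against 162, 167 and 163 CPM in wild type (log2 fold change -0.33, SE 0.10; adjusted p = 0.30 with edgeR and 0.0215 with DESeq2). Sec24d, a cargo-binding coat subunit, was at 25.4 and 22.6 CPM in NICcA, against 27.8, 31.6 and 37.0 CPM in wild type (log2 fold change -0.42, SE 0.15), and neither gene overlapped between the groups.

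**Figure D5:**
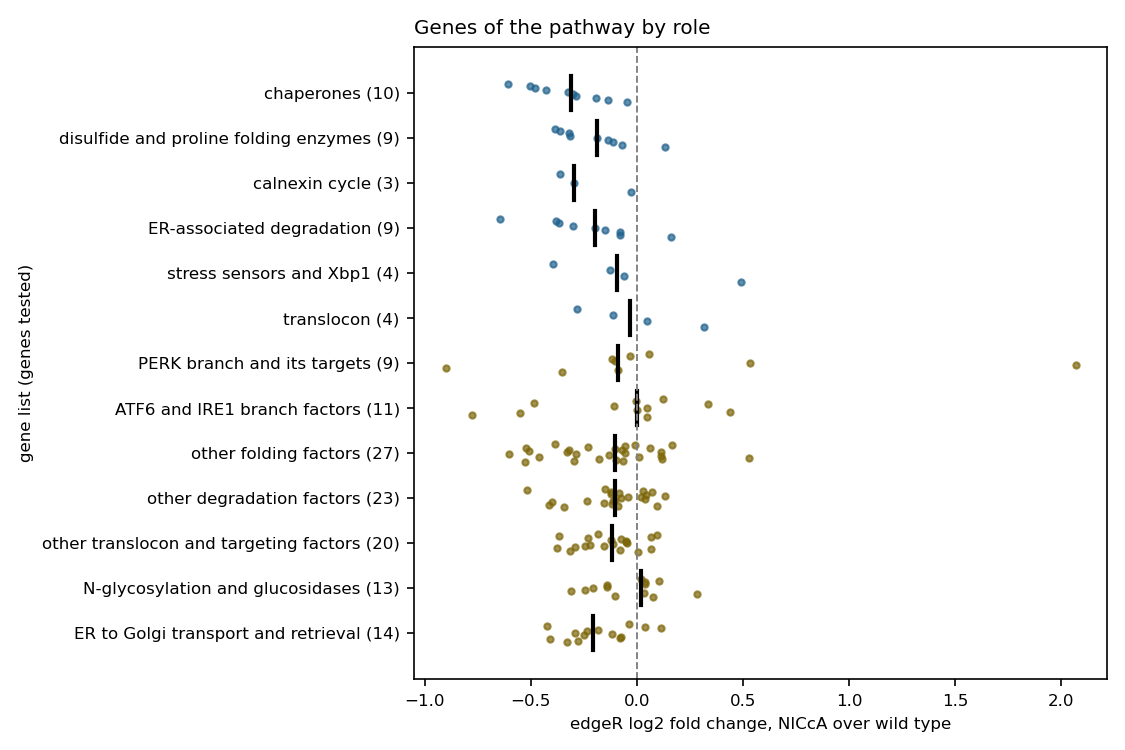
EdgeR log2 fold change, NICcA over wild type (x axis), of each tested gene in the 6 role groups of the members (blue) and the 7 lists of other pathway genes (brown), with the number of genes in brackets. Black lines mark the median of each list, from -0.31 for the chaperones to 0.02 for N-glycosylation, and the dashed line marks the median of all genes.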

How the data were processed

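Messenger RNA of 5 libraries was analysed, grouped by the genotype in the labels. Per the file headers and the design text, the deposited table holds the authors' raw read count and RPKM for each of 27457 transcript rows. Bowtie 0.12.2 and mm8 appear in the submitters' processing notes, with no role for either. How reads were counted, and whether by strand, is not given in the sources used here. Isoform rows of a gene share reads, and paralogs can too. A symbol turned into a date was renamed through its RefSeq accession.

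The count test was edgeR 4.0.16 under R 4.3.3 (TMM, filterByExpr, glmQLFit and glmQLFTest, genotype as the only term) on all transcript rows, with Benjamini-Hochberg adjustment and a threshold of 0.05. The test had been planned on genes, and the file holds transcripts. Each SE was derived from the fold change and the quasi-likelihood F (absolute log2 value over the root of F). The common biological coefficient of variation was 22.5%, and scripts were tested on simulated counts. Motifs were searched in RefSeq promoter windows (GRCm38.p6), which is not the files' build. Protein ends are not analysed here.

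Values per library are given for the 10 members with the smallest p, the 2 smallest in each role group, the sensors, Hspa5, Hsp90b1 and Xbp1, and, in each other list, the 2 smallest. Other genes were named after their values were seen. The members and lists were chosen with earlier results of these data known. Alternatives were other scaling, filters, DESeq2 1.42.0, limma 3.58.1 (voom, and log2 RPKM with a pseudocount of 1 or 0.1 for rows reaching an RPKM of 1 in 2 libraries), 1 row per gene before the fit, the replicate number as a block, and leaving out each library. Python 3.11.15 with pandas 2.3.3, numpy 2.4.6 and matplotlib 3.10.9 was used for the rest.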

Additional observations from a re-analysis of the deposited data

How the results depend on the processing

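The comparison rests on 2 NICcA and 3 wild type libraries, and counting error is largest for low genes such as Derl3 and Chac1. EdgeR and limma called 0 members under every setting and with any library left out, while DESeq2 called 8. Genes called over the whole table, 4 in edgeR, became 11 without a low-count filter, 527 with DESeq2, 2 with limma-voom, 8 with legacy = FALSE, 2 with log2(RPKM + 1) and 2 with log2(RPKM + 0.1). Leaving out 1 library gave 0 to 44 genes, with 44 when NICcA replicate 3 was left out and 0 when NICcA replicate 2 or wild type replicate 2 was. The cause was not tested.

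The members' median of -0.20 became -0.0892 without scaling factors, -0.0823 with log2(RPKM + 1), -0.0842 with log2(RPKM + 0.1) and -0.0852 with log2(RPKM + 1) and no filter. With 1 library left out it ran from -0.2294 to -0.1926. The median of all genes shifted to 0.11, 0.09 and 0.11 in those without scaling factors, with log2(RPKM + 1) and with log2(RPKM + 0.1), and the members' median minus that of all genes was -0.2306 to -0.0953 over the alternatives. Derl3 did not pass the RPKM filter. Members apart with NICcA lower numbered 24 to 28 with 1 library left out, where fewer libraries need to be apart. That holds for all genes as well, and their shares are not given here, so nothing is read from these counts. These counts, and the settings for negative values and for the median minus that of all genes, were chosen after seeing the data.

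The replicate numbers 2 and 3 occur in both genotypes, and libraries of the same number correlated at 0.206 and 0.168 in their deviations from the group means. The 2 NICcA libraries deviate from their mean by opposite amounts, so the signs are mirrored for unlike numbers. NICcA replicate 3 with wild type replicate 2 gave -0.206, and NICcA replicate 2 with wild type replicate 3 gave -0.168. These values are not independent and cannot show a pairing. With the replicate number as a block, edgeR called 0 members and 0 genes, and the members' median was -0.2305.

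Of 700 single-member values over the alternatives, 36 changed sign, in 10 members. Without scaling factors the log2 fold change was 0.0550 for Creld2, 0.0355 for Ppib, 0.0776 for Uggt1, 0.0250 for Herpud1, 0.0253 for Derl1 and 0.0458 for Eif2ak3. On log2(RPKM + 1), with or without the filter, it was 0.0508 for Creld2, 0.0024 for P4hb, 0.0456 for Ppib, 0.0810 for Uggt1, 0.0394 for Herpud1, 0.0326 for Derl1, 0.0416 for Eif2ak3 and 0.0046 for Ssr1. On log2(RPKM + 0.1) it was 0.0529 for Creld2, 0.0025 for P4hb, 0.0459 for Ppib, 0.0862 for Uggt1, 0.0403 for Herpud1, 0.0335 for Derl1, 0.0452 for Eif2ak3 and 0.0051 for Ssr1. With 1 library left out the range was -0.2784 to 0.1506 for Creld2, -0.1498 to 0.0311 for Herpud1, -0.0292 to 0.3262 for Edem2, -0.2095 to 0.0727 for Eif2ak3 and -0.0246 to 0.1212 for Sec61a1. Searched on the given strand alone, 6 members held the ERSE and 0 the Rbpj site.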
